A study of Sus scrofa with 4 samples.

Results

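The genes described here make, move or burn the products of glucose breakdown, or belong to the cell's response to low oxygen. The set had 35 listed genes: a glucose transporter pair, the enzymes of glycolysis, the genes of lactate and pyruvate handling, the oxygen-sensing factors and 5 targets of the hypoxia response. Members were the entries of the deposited gene table whose symbol equals a listed name. This gave 28 of the 22309 genes in the table, and 27 of them had enough counts to be tested. A further 7 entries without a usable symbol were matched through reference tables of gene names or through the gene description, and are named as added: SLC2A3, GAPDH, PKM, LDHA, EGLN1, VHL and a second LDHB entry. With these, 34 of the 35 listed genes had an entry, and SLC2A1, the widespread glucose transporter, is not analysed here.

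The samples were pig (Sus scrofa) ovaries in diestrus, the luteal stage of the oestrous cycle, sequenced as poly(A)-selected RNA. A pair of libraries came from wild-type (WT) pigs and a pair from leptin overexpression pigs, so each group had 2 libraries (n = 2). The overexpressing sows were F2 animals from matings that started with re-cloned offspring of a leptin-transgenic pig and Duroc/Landrace/Yorkshire sows, per the series design; the promoter of the transgene is not stated in the sources used here, and neither are the ages of the sows. Whether each library of a group was a separate sow is not in the labels; the p-values therefore measure only spread among these libraries, and that spread may be technical.

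Glycolysis splits glucose into pyruvate in the cytosol, and lactate dehydrogenase converts pyruvate to lactate, which monocarboxylate transporters carry across the plasma membrane together with a proton. When oxygen is low, prolyl hydroxylases no longer mark the alpha subunits of hypoxia-inducible factor (HIF) for removal by the VHL ubiquitin ligase, and HIF raises transcription of many glycolytic genes. In the ovary, granulosa and cumulus cells supply pyruvate and lactate to the oocyte, and the forming corpus luteum is a tissue in which HIF is active before its vessels have grown in.

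Library totals were 16493113 to 16797511 counts. The leptin gene itself, LEP, was at 0 and 3 counts in WT 1 and WT 2 and at 55 and 124 counts in leptin 1 and leptin 2. Summed markers of luteal cells came to 19822 CPM in WT 1 and to between 41082 and 45028 CPM in the other libraries, and granulosa and theca markers were detected in every library. CPM is the count of a gene relative to its library's total, scaled with TMM factors, which correct for differences in library composition. WT 1 had the highest TMM factor, 1.34 against 0.81 to 1.00, so values are given with and without it where it matters. Leptin 2, with the lowest factor, stood apart as well. Over all genes tested it was the highest library for 4976 and the lowest for 4771, against 3967 and 3944 for WT 1. The lowest correlation between libraries was 0.875, between WT 1 and leptin 2. In bulk tissue, fewer cells of a type and less RNA per cell cannot be told apart. Of the 13937 genes tested, 4 passed the adjusted threshold of 0.05 in edgeR's quasi-likelihood test with Benjamini-Hochberg adjustment, all 4 higher in leptin ovaries, which is 0.0287% of the genes tested.

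None of the 27 tested members passed that threshold, and none of the 7 added entries did. The lowest adjusted p among them was 0.198, for the lactate exporter SLC16A3. At an unadjusted p under 0.05, 1 of the 27 members was lower in the leptin libraries, SLC16A3, beside 5.32% of all genes, and 1 was higher, the hexokinase HK2, beside 4.04% of all genes. DESeq2 called 1 member, again SLC16A3, lower, beside 1.47% of all genes, and called no member higher, beside 0.718% of all genes. The median log2 fold change (leptin overexpression minus WT) of the 27 members was -0.15, and that of all genes tested was -0.01. It was below 0 in 15 of the 27, or in 18 of the 34 with the added entries, where 50.7% of all genes lay below 0. The libraries of the groups did not overlap in CPM for 12 of the 27 members: 4 were higher in both leptin libraries, beside 22.2% of all genes, and 8 were lower in both, beside 22.9%. On the deposited FPKM, 2 of the 27 were higher in both leptin libraries, beside 6.85% of all genes, and 12 were lower, beside 39.7%, and limma on log2(FPKM + 1) called SLC16A3 lower, beside 1.84% of all genes. In 16 of the 27 members the log2 difference between the WT libraries was larger than the genotype difference, which held for 45% of all genes.

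**Figure D1:**
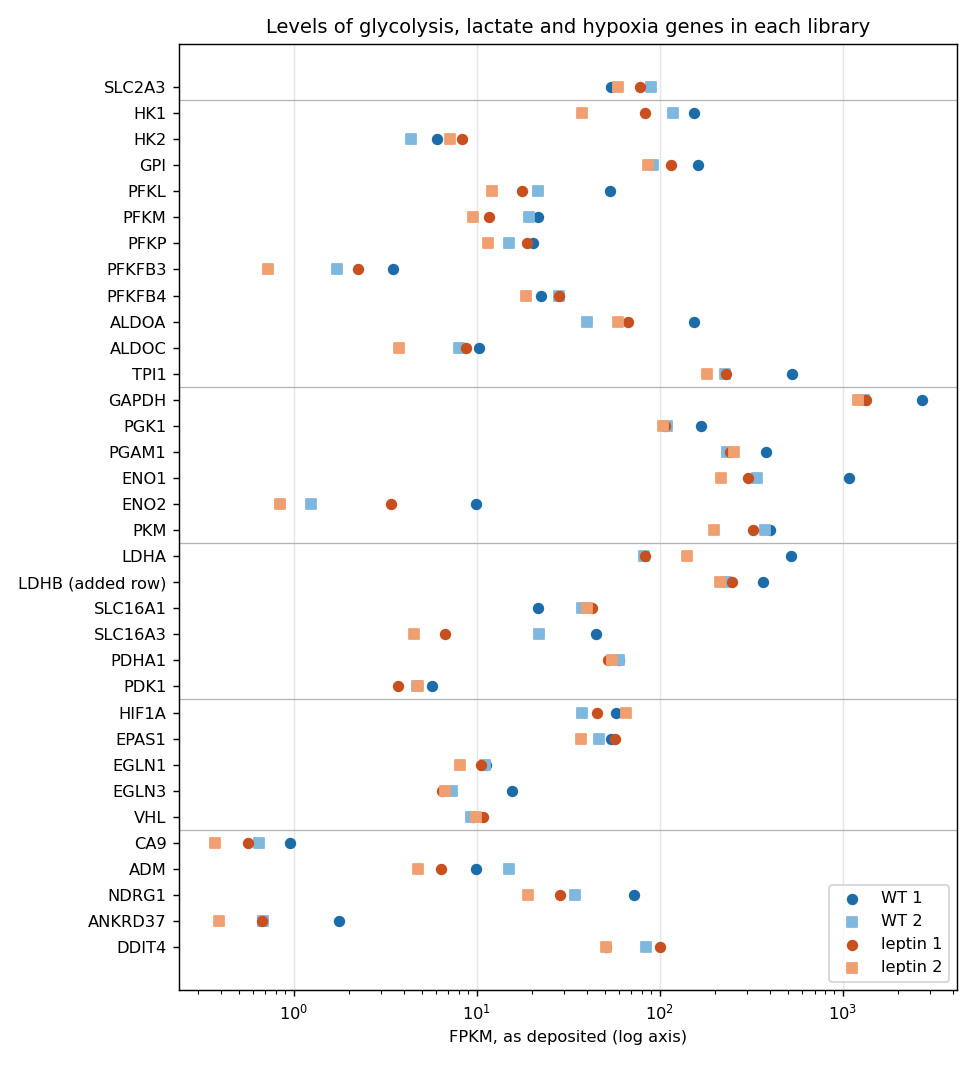
Deposited FPKM of each tested gene in each library, on a log axis, with genes grouped by role; each point is 1 library, with n = 2 per genotype. GAPDH, ENO1 and PKM lie at the right, CA9 and ANKRD37 at the left, and SLC16A3 shows the widest gap between WT and leptin points.

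Compared per length, in the deposited FPKM, which scales fragments to transcript length and to library size, the members spanned a wide range. GAPDH (added), which oxidises glyceraldehyde phosphate, was at 2708 and 1311 FPKM in WT 1 and WT 2 and at 1336 and 1209 in leptin 1 and leptin 2. At the low end, CA9, a carbonic anhydrase of the cell surface, was at 0.95, 0.65, 0.56 and 0.37 FPKM in the same order. The plot of levels by library shows that the enzymes from aldolase to pyruvate kinase mostly lay above the phosphofructokinase subunits.

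The member with the lowest p was a lactate transporter. SLC16A3, which encodes MCT4, the low-affinity monocarboxylate transporter of cells that export lactate, was at 74.9 and 48.9 CPM in WT 1 and WT 2 and at 16.3 and 12.5 CPM in leptin 1 and leptin 2. Both leptin libraries lay under both WT libraries, with means of 61.9 ± 18.4 CPM in WT and 14.4 ± 2.67 CPM in leptin ovaries (SD, n = 2), a 4.31-fold lower mean. The log2 fold change was -2.11 (SE 0.40), with an unadjusted p of 5.87e-04 and an adjusted p of 0.198 in edgeR's quasi-likelihood test. The call depended on the method: the adjusted p was 8.05e-04 with DESeq2, 0.00149 with limma on log2(FPKM + 1) and 0.387 with limma-voom. Without WT 1 the log2 fold change was -1.78, and it was between -1.91 and -2.40 without each of the other libraries.

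SLC16A1, which encodes MCT1, the high-affinity transporter that imports or exports lactate and pyruvate, went the other way. It was at 73.0 CPM in WT 1, 165 in WT 2, 228 in leptin 1 and 257 in leptin 2. Both leptin libraries lay above both WT libraries, but the WT libraries themselves differed more than 2-fold. The log2 fold change was 1.03 (SE 0.48, adjusted p = 0.551), and it was 0.54 without WT 1. Within each library, the FPKM ratio of SLC16A1 to SLC16A3 was 0.480 in WT 1, 1.72 in WT 2, 6.30 in leptin 1 and 8.87 in leptin 2. The ratio thus averaged 1.10 ± 0.879 in WT and 7.59 ± 1.82 in leptin ovaries (SD, n = 2). Overlap of the ratio was not possible, since in FPKM SLC16A1 was higher and SLC16A3 lower in both leptin libraries. The exact two-sided permutation p was thereby fixed at 0.333, the smallest that 2 libraries against 2 can give.

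Markers of some other cell types also separated the genotypes. Of all genes, 22.2% were higher and 22.9% lower in both leptin libraries. The 7 markers of oviduct and surface epithelium summed to 522 and 280.2 CPM in the WT libraries and to 6.40 and 68.5 CPM in the leptin libraries. Of the 7, 6 did not overlap between the groups and were lower in leptin ovaries. The exception was EPCAM, at 33.8, 7.76, 2.55 and 57.1 CPM over the libraries in order, which made most of the leptin 2 sum. OVGP1, at 316 and 183 CPM in WT 1 and WT 2, made most of the WT sums. Of the 6 smooth muscle and pericyte markers, 5 were lower in both leptin libraries, with sums of 1322 and 1429 CPM in WT and 812 and 972 CPM in leptin. Of the 4 tested T and NK cell markers, 3 were lower in both leptin libraries, with sums of 24.5, 26.2, 11.3 and 9.86 CPM over the libraries in order. Of the 6 tested macrophage and neutrophil markers, 3 were lower and 1 higher in both leptin libraries, with sums over the list of 199.98, 180.1, 146 and 141 CPM. Neuron markers went the other way: 4 of 5 were higher and 1 lower in both leptin libraries, with sums of 117, 247, 368 and 452 CPM. Most of each sum was UCHL1, at 109, 240, 269 and 323 CPM. STMN2, at 0.227, 0.298, 37.3 and 35.3 CPM, and NEFL, at 0.771, 0.358, 39.6 and 50.6 CPM, passed the threshold. Their adjusted p in edgeR's quasi-likelihood test was 0.00495 and 0.00697. The remaining lists separated less or held few tested markers. Lower in both leptin libraries were 2 of 7 endothelial, 1 of 7 granulosa and 1 of 5 tested oocyte markers. Of the luteal markers 1 of 6 was higher in both, and no theca or erythroid marker separated. Of 2 tested markers each, adipocytes had 1 higher and 1 lower, and skeletal muscle had 2 higher. Luteal markers were lowest in WT 1 for 5 of 6, as SLC16A1 was. The part of these cells in the transporter values was not tested.

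The other genes of lactate and pyruvate differed less between genotypes. LDHA (added), the dehydrogenase subunit that favours lactate formation, was at 696 CPM in WT 1, 149 in WT 2, 162 in leptin 1 and 315 in leptin 2. It was more than 2-fold higher in WT 1 than in any other library, and the groups overlapped. Its log2 fold change was -0.82 (SE 0.71, adjusted p = 0.699), and it was 0.65 without WT 1. LDHB, the subunit that favours pyruvate formation, had an entry under its own symbol with 2.08 counts in WT 1 and 0 in the other libraries, which was too low to test. The added LDHB entry was at 371, 311, 362 and 356 CPM, a narrow range in which the groups overlapped (log2 fold change 0.07, SE 0.42, adjusted p = 0.959). The FPKM ratio of LDHA to the added LDHB entry was 1.42 in WT 1 and 0.358, 0.336 and 0.662 in WT 2, leptin 1 and leptin 2, so that LDHA exceeded LDHB in WT 1 alone. How the authors' counting divided reads between the entries of LDHB, or between these enzymes and their pseudogene copies, is not given in these sources.

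PDHA1 encodes the catalytic alpha subunit of pyruvate dehydrogenase, which feeds pyruvate to the mitochondrion, and PDK1 the kinase that inhibits it. PDHA1 was at 166, 209, 205 and 251 CPM and PDK1 at 18.6, 19.8, 20.04 and 26.4 CPM in WT 1, WT 2, leptin 1 and leptin 2. PDHA1 overlapped between the groups, and PDK1 was higher in both leptin libraries, by a margin over WT 2 that was small beside the gap between the leptin libraries. The log2 fold change of each was 0.28, with adjusted p of 0.820 and 0.814, and on log2(FPKM + 1) the sign turned to -0.17 for PDHA1 and -0.26 for PDK1. In that scaling the median of all genes was itself -0.30, so both lay above it.

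**Figure D2:**
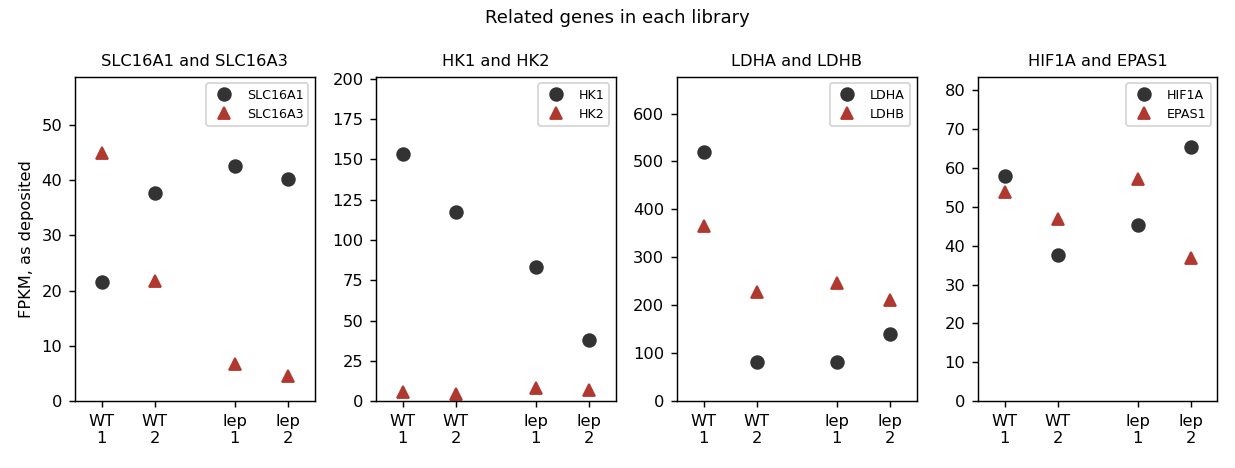
Deposited FPKM of related gene pairs in each library, on axes starting at 0; each point is 1 library (WT 1, WT 2, leptin 1, leptin 2). SLC16A3 lay above SLC16A1 in WT 1 and under it in the other libraries, HK1 lay nearer to HK2 in the leptin libraries, and LDHA stood above the added LDHB entry in WT 1 alone.

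Glucose enters glycolysis through transporters and hexokinases. SLC2A3 (added), which encodes the high-affinity transporter GLUT3, was at 171 CPM in WT 1 and at 379, 355 and 310.0 CPM in WT 2, leptin 1 and leptin 2. Only WT 1 was low, and the groups overlapped (log2 fold change 0.27, SE 0.49, adjusted p = 0.859). Its sign turned without WT 1, to -0.21.

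The hexokinases trap glucose as glucose 6-phosphate, HK1 as the form of most tissues and HK2 as the form of muscle, fat and rapidly growing cells. HK2 was at 24.5 and 23.5 CPM in the WT libraries and at 48.6 and 47.8 CPM in the leptin libraries. In CPM the libraries of each group nearly coincided, with means of 24.0 ± 0.698 CPM in WT and 48.2 ± 0.586 CPM in leptin ovaries (SD, n = 2). The log2 fold change was 1.01 (SE 0.35), with an unadjusted p of 0.0192 and an adjusted p of 0.425, and it was between 0.95 and 1.03 without each library in turn. On the deposited FPKM, HK2 was at 6.08 and 4.36 in WT and at 8.36 and 7.18 in leptin, still without overlap but with a wider spread in WT, and the log2 fold change on log2(FPKM + 1) was 0.51. HK1 was at 411 and 420.3 CPM in WT and at 323 and 168 CPM in leptin. Both leptin libraries lay under both WT libraries, and leptin 2 lay far under leptin 1. In log2, the fold change of HK1 was -0.76 (SE 0.47, adjusted p = 0.607), and it was -0.35 without leptin 2. The FPKM ratio of HK1 to HK2 was 25.2 and 26.9 in WT and 9.99 and 5.27 in leptin (exact permutation p = 0.333). Its lack of overlap, and with it this p, follows from the separation of HK1 and HK2 in opposite directions in FPKM.

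Phosphofructokinase, the committed step of glycolysis, is built from the liver (PFKL), muscle (PFKM) and platelet (PFKP) subunits. PFKL was at 115 and 61.5 CPM in WT and at 54.9 and 42.4 CPM in leptin, without overlap but with WT 1 far above the rest. Its log2 fold change was -0.86 (SE 0.42, adjusted p = 0.564) with all libraries and -0.36 without WT 1. PFKM was at 48.5 and 57.3 CPM in WT and at 37.3 and 34.8 CPM in leptin, also without overlap (log2 fold change -0.55, SE 0.35, adjusted p = 0.607). PFKP was at 42.4, 41.8, 56.3 and 39.6 CPM, and its groups overlapped (log2 fold change 0.19, SE 0.36). As a percent of the summed FPKM of the 3 subunits, PFKP made up 21.4 and 27.0 in WT and 39.0 and 34.8 in leptin, while PFKL made up 56.0 in WT 1 and 36.5 to 38.5 in the other 3 libraries. The exact permutation p was 0.333 for both shares.

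PFKFB3 and PFKFB4 make or remove fructose 2,6-bisphosphate, the activator of phosphofructokinase. PFKFB3 was at 14.3, 9.49, 13.8 and 4.71 CPM and PFKFB4 at 59.4, 98.0, 107 and 80.6 CPM in WT 1, WT 2, leptin 1 and leptin 2. In both genes the groups overlapped, with log2 fold changes of -0.36 (SE 0.57) and 0.26 (SE 0.40). GPI, which isomerises glucose 6-phosphate, also overlapped, at 693, 526, 714 and 607 CPM (log2 fold change 0.12, SE 0.45).

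Several enzymes after the phosphofructokinase step were highest in WT 1. ENO1, the main enolase, was at 1736 CPM in WT 1, 719 in WT 2, 698 in leptin 1 and 569 in leptin 2. The groups did not overlap, yet WT 2 and leptin 1 were nearly equal, and WT 1 was 2.42-fold above WT 2. The genotype difference in log2 was -0.95 (SE 0.56, adjusted p = 0.600) with all libraries and -0.20 without WT 1. ENO2, the neuronal enolase, was at 27.3, 4.59, 13.6 and 3.88 CPM, with 1 high library in each group and overlap between them. Its log2 fold change was -0.87 (SE 0.91, adjusted p = 0.755) and turned to 0.92 without WT 1.

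ALDOA, the aldolase of muscle and most other tissues, was at 231, 80.8, 145 and 147 CPM, so the WT libraries enclosed the leptin libraries. In log2, the fold change of ALDOA was -0.10 (SE 0.51) and turned to 0.83 without WT 1. ALDOC, the brain aldolase, was at 52.0, 56.3, 64.1 and 33.1 CPM and overlapped (log2 fold change -0.15, SE 0.41). TPI1, which interconverts the triose phosphates, was at 542 CPM in WT 1 and at 309.9, 338 and 305 CPM in the others. Its log2 fold change was -0.41 (SE 0.46, adjusted p = 0.768), or 0.03 without WT 1.

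GAPDH (added), often used as a reference gene, was at 2723, 1784, 1944 and 2054 CPM, and it too was highest in WT 1 and overlapped between the groups. Its log2 fold change was -0.17 (SE 0.52, adjusted p = 0.918), or 0.14 without WT 1. PGK1 and PGAM1, the kinase and the mutase of the 3-carbon acids, were flatter. PGK1 ran from 406 to 477 CPM and PGAM1 from 477 to 642 CPM over the 4 libraries, with log2 fold changes of 0.06 (SE 0.43) and 0.16 (SE 0.44). PKM (added), the pyruvate kinase that ends the pathway, was at 1396, 1747, 1611 and 1133 CPM and overlapped (log2 fold change -0.20, SE 0.50, adjusted p = 0.902).

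Counted together, 17 enzymes were tested: those of glycolysis, with GAPDH and PKM added, and PFKFB3 and PFKFB4, which act on its activator. None passed the threshold, in edgeR's quasi-likelihood test or with DESeq2. In the former HK2 alone, higher in leptin, had an unadjusted p under 0.05, beside 4.04% of all genes. WT 1 was the highest library for 7 of them, beside 28.5% of all genes, and lay above WT 2 for 12, beside 51.2%. ENO1, ENO2 and LDHA were more than 2-fold higher in WT 1 than in every other library, 3 of the 34 entries, beside 4.35% of all genes. The genotype difference in log2 was below 0 in 11 of the 17 with all libraries and in 8 of the 17 without WT 1, where 51.1% of all genes lay below 0. The median moved from -0.17 to 0.03 when WT 1 was left out, and to -0.45 when WT 2 was left out. Leptin 2 was the lowest library for 10 of the 17, beside 4771 of the 13937 genes tested. For the 27 tested members the median moved from -0.15 to 0.03 without WT 1, and to 5.8e-05 without leptin 2. Of all counts, before TMM scaling, the 17 enzymes took 1.22% in WT 1, 0.681% in WT 2, 0.660% in leptin 1 and 0.516% in leptin 2. In CPM, which is TMM-scaled, the 17 summed to 9161, 6821, 7136 and 6388 in the same order. There the groups overlapped, with leptin 1 above WT 2. Mitochondrially encoded genes took 6.89%, 12.9%, 15.1% and 16.4% of the unscaled counts in the same order. Oocyte markers were also highest in WT 1, in 5 of 5 tested, summing to 115 CPM there and to 19.2 to 21.7 CPM elsewhere, and 5 of the 7 epithelial markers were highest there. The part of these cells in the WT 1 values was not tested.

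**Figure D3:**
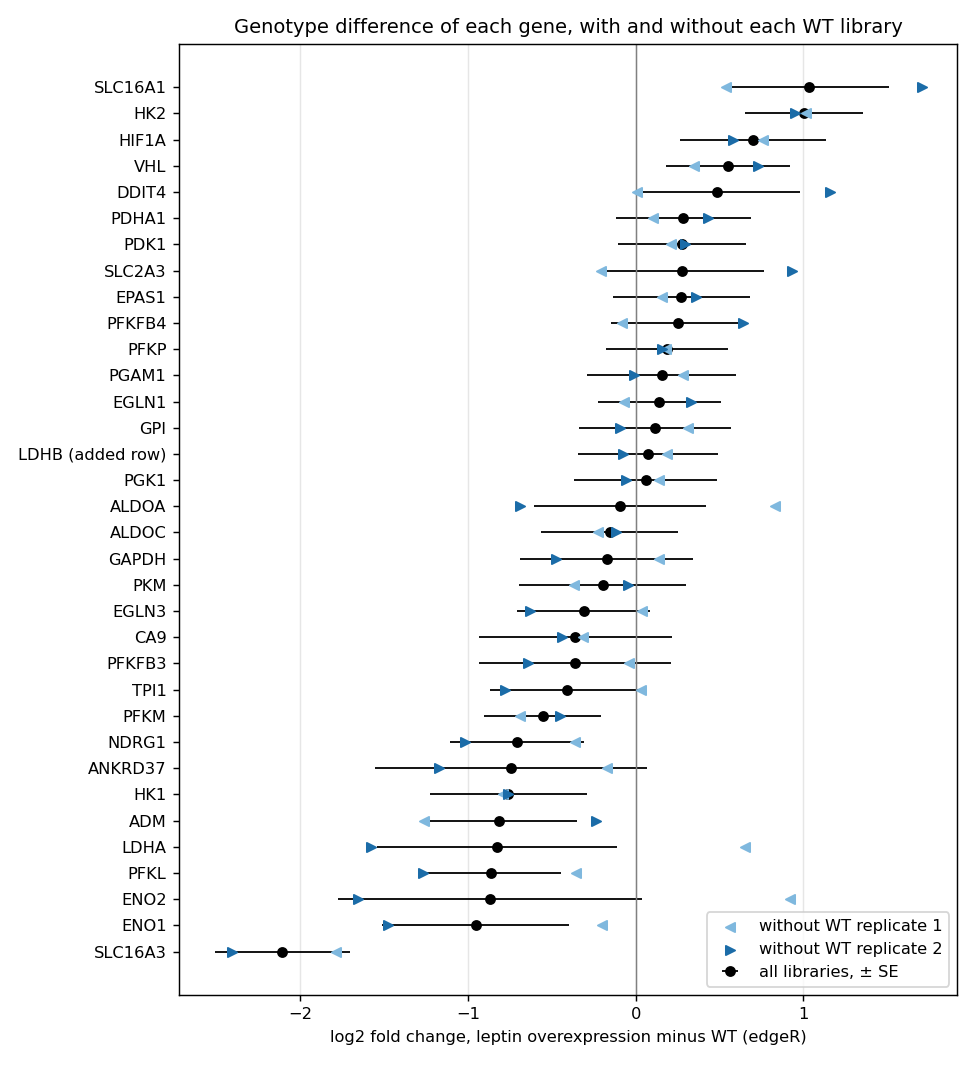
Log2 fold change, leptin overexpression minus WT, of each tested gene from edgeR's quasi-likelihood fit with all libraries (with its SE) and without WT 1 or without WT 2. For ENO2, LDHA and ALDOA the sign differs between leaving out WT 1 and leaving out WT 2. The same holds for SLC2A3, GPI, PFKFB4, TPI1, GAPDH, PGK1, PGAM1, added LDHB, EGLN1 and EGLN3. For SLC16A3 and HK2 the values stay on 1 side of 0.

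Oxygen sensing was read from 5 genes, whose proteins are controlled mainly by hydroxylation and degradation, which RNA does not show. HIF1A, the alpha subunit of HIF found in most cells, was at 177 and 157 CPM in WT and at 200.03 and 343 CPM in leptin. Both leptin libraries lay above WT, but leptin 1 only slightly so. In log2, the fold change was 0.70 (SE 0.44, adjusted p = 0.607), and on deposited FPKM the groups overlapped, at 57.9, 37.5, 45.2 and 65.2. EPAS1, the HIF-2 alpha subunit prominent in endothelium, was at 205, 237, 304 and 230.5 CPM and overlapped (log2 fold change 0.27, SE 0.41, adjusted p = 0.831).

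VHL (added), the substrate receptor of the ligase that removes HIF, was at 19.9 and 26.02 CPM in WT and at 32.8 and 34.5 CPM in leptin. It did not overlap, and the log2 fold change was 0.55 (SE 0.37, adjusted p = 0.625). The prolyl hydroxylase EGLN1 (added) was at 27.9, 36.9, 38.1 and 33.4 CPM and overlapped (log2 fold change 0.14, SE 0.37). EGLN3, a hydroxylase that HIF itself induces, was at 37.6 CPM in WT 1 and at 23.8, 22.7 and 27.0 CPM in the others, and also overlapped (log2 fold change -0.31, SE 0.40).

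Of the 5 hypoxia targets, 4 had a log2 fold change below 0 and none passed the threshold. NDRG1, a stress-response gene strongly induced by low oxygen, was at 161 and 103 CPM in WT and at 91.5 and 70.3 CPM in leptin. The groups did not overlap, with the highest value in WT 1. The genotype difference in log2 was -0.71 (SE 0.40, adjusted p = 0.595), or -0.36 without WT 1. ADM, the vasodilator peptide adrenomedullin, was at 13.6 and 27.7 CPM in WT and at 12.7 and 10.8 CPM in leptin. Here WT 2 was the high library and WT 1 lay close to leptin 1. In log2, the fold change of ADM was -0.81 (SE 0.46, adjusted p = 0.596), or -0.24 without WT 2.

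CA9 was at 4.95 and 4.54 CPM in WT and at 4.18 and 3.21 CPM in leptin, without overlap but from 43 to 109 counts per library (log2 fold change -0.36, SE 0.58, adjusted p = 0.844). ANKRD37, a small HIF-induced ankyrin protein, rested on 14 to 66 counts and overlapped, at 2.99, 1.49, 1.63 and 1.05 CPM (log2 fold change -0.74, SE 0.81). DDIT4, an inhibitor of mTORC1 that low oxygen and glucocorticoids induce, was at 65.9, 147, 189 and 109.8 CPM. It overlapped between the groups, with WT 1 lowest, and its log2 fold change of 0.49 (SE 0.49, adjusted p = 0.738) was 0.01 without WT 1.

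**Figure D4:**
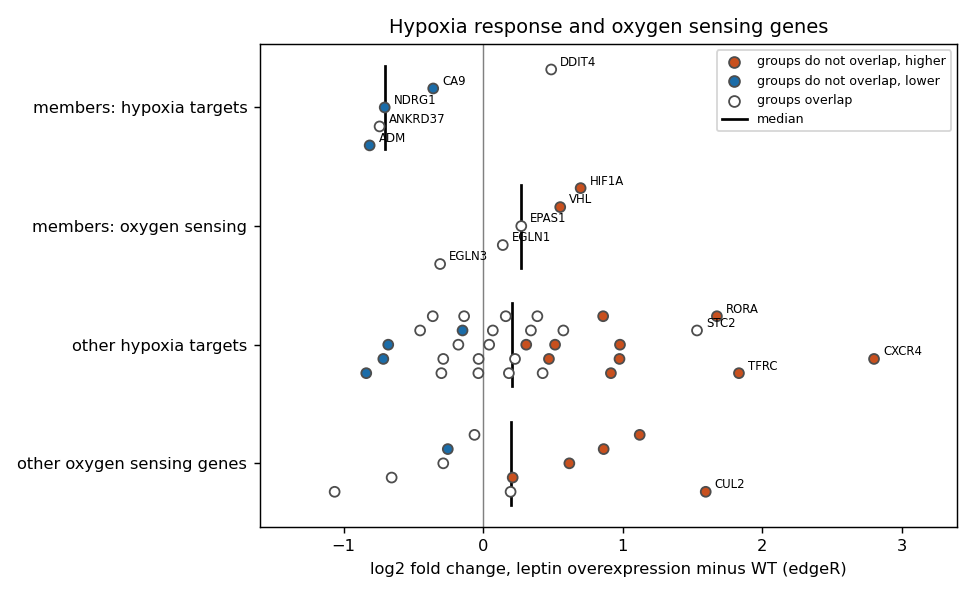
Log2 fold change, leptin overexpression minus WT, of the hypoxia target and oxygen sensing genes of the set and of the wider lists; each point is 1 gene, filled where the libraries of the groups did not overlap in CPM, and each black bar is a list's median. The target genes of the set lie mostly below 0, and the wider target list is spread around a median of 0.21 with CXCR4 at 2.80.

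A wider list held 32 other hypoxia targets. None passed the threshold in edgeR's quasi-likelihood test, while 5 were higher at an unadjusted p under 0.05, beside 4.04% of all genes, and the median log2 fold change was 0.21, with 20 of 32 above 0. In 10 of the 32 both leptin libraries lay above WT in CPM, beside 22.2% of all genes, and in 4 both lay under it, beside 22.9%. On FPKM both lay above WT in 5 and under it in 12, beside 6.85% and 39.7% of all genes. The chemokine receptor gene CXCR4 had 36.6 and 83.0 CPM in WT and 253 and 581 CPM in leptin (log2 fold change 2.80, SE 0.60, adjusted p = 0.218; 7.93e-05 with DESeq2). The transferrin receptor gene TFRC had 57.3 and 56.3 CPM in WT and 146 and 259 CPM in leptin (log2 fold change 1.83, SE 0.43, adjusted p = 0.225; 0.00381 with DESeq2). Neither overlapped between the groups, and DESeq2 called these 2 of the 32 higher, beside 0.718% of all genes. The log2 fold change of CXCR4 ran from 2.09 without leptin 2 to 3.48 without WT 2. LOX, which cross-links collagen, was also higher in both leptin libraries, at 28.9, 40.8, 61.6 and 75.7 CPM (log2 fold change 0.98, SE 0.37, adjusted p = 0.481). RORA, a nuclear receptor, was lower in level, at 4.31, 4.24, 8.68 and 18.7 CPM (log2 fold change 1.68, adjusted p = 0.365, and a log2 fold change of 1.04 without leptin 2), and TXNIP, which restrains glucose uptake, was flat, at 540.1, 648, 647 and 578 CPM (log2 fold change 0.04, adjusted p = 0.978). ANGPTL4, an inhibitor of lipoprotein lipase, overlapped, at 392, 536, 440.5 and 466 CPM (log2 fold change -0.03, SE 0.44).

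Among 11 other oxygen-sensing genes none passed, and the median was 0.20. CUL2 and SIAH2 were higher at an unadjusted p under 0.05 in edgeR's quasi-likelihood test, beside 4.04% of all genes. In CPM 5 were higher and 1 lower in both leptin libraries, beside 22.2% and 22.9% of all genes. On FPKM 2 were higher and 4 lower, beside 6.85% and 39.7%. CUL2, the scaffold of the VHL ligase, was at 26.5 and 23.2 CPM in WT and at 38.5 and 112 CPM in leptin, so that leptin 2 made most of the difference (log2 fold change 1.60, SE 0.51, adjusted p = 0.367). Without leptin 2 the log2 fold change of CUL2 was 0.65, and without leptin 1 it was 2.19. SIAH2, a ligase that removes prolyl hydroxylases, was at 24.7, 30.3, 42.8 and 57.1 CPM (log2 fold change 0.86, SE 0.37, adjusted p = 0.524). ELOC, the adaptor elongin C, was also higher in both leptin libraries, at 17.6, 18.6, 24.9 and 30.7 CPM. ARNT, the partner of the HIF alpha subunits, was at 220.4 CPM in WT 1 and at 94.2 to 121 CPM elsewhere, and overlapped (log2 fold change -0.66, SE 0.43). ELOB and RBX1, the other small subunits of the ligase, had log2 fold changes of 0.21 and 0.20.

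Of 21 other glycolysis genes, 13 were tested, none passed, and the median was -0.20. HK3 alone had an unadjusted p under 0.05 in edgeR's quasi-likelihood test, lower in leptin, beside 5.32% of all genes. HK3, the hexokinase of white blood cells, was at 52.4 CPM in WT 1 and at 12.1, 9.99 and 7.99 CPM in WT 2, leptin 1 and leptin 2. The step was thus between WT 1 and the rest, and the log2 fold change of -1.84 (SE 0.65, adjusted p = 0.446) was -0.44 without WT 1. SLC2A12, a further glucose transporter, and ENO3, the muscle enolase, were under 5 CPM in every library and lower in both leptin libraries, with log2 fold changes of -1.03 (SE 0.71) and -0.91 (SE 0.71). ADPGK, PGM1 and PGM2 overlapped between the groups.

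Of 22 other genes of lactate, pyruvate and gluconeogenesis, 19 were tested, none passed, and the median was 0.19. DLD alone had an unadjusted p under 0.05 in edgeR's quasi-likelihood test, higher in leptin, beside 4.04% of all genes. Both leptin libraries lay above WT for 4 of the 19, near the 22.2% of all genes, and under it for 1, beside 22.9%. DLD, the shared dehydrogenase subunit of the pyruvate and ketoglutarate complexes, was at 81.3 and 99.8 CPM in WT and at 122 and 291 CPM in leptin (log2 fold change 1.19, SE 0.49, adjusted p = 0.518). Most of this lay in leptin 2, without which the log2 fold change of DLD was 0.44. MPC2, a subunit of the mitochondrial pyruvate carrier, was at 46.5, 69.4, 74.9 and 122 CPM (log2 fold change 0.76, SE 0.41, adjusted p = 0.580). The log2 fold change of MPC2 was 0.48 without WT 1 and 0.38 without leptin 2. PDK3, a pyruvate dehydrogenase kinase, was at 67.1, 118, 149 and 159 CPM, with the leptin libraries above WT and WT 1 lowest (log2 fold change 0.73, SE 0.41, or 0.36 without WT 1). PDHB, the beta subunit that pairs with PDHA1, was at 88.1, 149, 146 and 215 CPM and overlapped (log2 fold change 0.61, SE 0.43, or 0.26 without WT 1).

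The routes that branch from glucose 6-phosphate were tested as 7 pentose phosphate and 10 glycogen genes, and none passed. UGP2 alone had an unadjusted p under 0.05 in edgeR's quasi-likelihood test, higher in leptin, beside 4.04% of all genes. DESeq2 called no gene of these, nor of the lists of other glycolysis, other lactate and pyruvate, and other oxygen-sensing genes. The pentose phosphate median was 0.29, and PGLS, PGD, RPE and TALDO1 were higher in both leptin libraries in CPM, with log2 fold changes from 0.29 to 0.81. These 4 of 7 compare with 22.2% of all genes. On FPKM all 4 overlapped between the groups, and 3 of the 7 were lower in both leptin libraries, beside 39.7% of all genes. TKT, the transketolase that links that pathway back to glycolysis, overlapped, at 250.0, 377, 313 and 245 CPM. In the glycogen list, with a median of -0.08, UGP2, which makes UDP-glucose, was at 187 and 391 CPM in WT and at 545 and 1309.7 CPM in leptin. The groups did not overlap, with a log2 fold change of 1.68 (SE 0.60, adjusted p = 0.438). It was 0.93 without leptin 2, 2.19 without leptin 1, 1.22 without WT 1 and 2.28 without WT 2. The phosphorylases that break glycogen down split, with PYGL higher in both leptin libraries (log2 fold change 0.23), PYGB lower in both (-0.43) and PYGM overlapping (-0.40).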

How the data were processed

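RNA of pig ovary was measured in 4 libraries, in 2 groups of 2. The deposited expected counts are unscaled estimates per gene, and the deposited FPKM values, computed by the authors, are scaled to transcript length and depth, per the file headers. Among the tools in the submitters' processing notes, which give no roles, are edgeR 3.32.0, DESeq2, RSEM, StringTie 1.3.1, HISAT2, Bowtie2 2.2.8 and fastp 0.18.0. The genome build, and whether counting used strand, were not given in the sources used here. Columns named for controls were taken as the WT libraries of the same number.

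Counts were rounded, filtered with filterByExpr (13937 genes kept, 8372 removed), scaled with TMM factors and tested with edgeR's quasi-likelihood test in R 4.3.3 (package versions: DESeq2 1.42.0, limma 3.58.1, edgeR 4.0.16), with genotype as the covariate, 2 residual degrees of freedom and Benjamini-Hochberg adjustment over all genes. SEs are approximate: the size of the log2 fold change over the root of the F statistic. The scripts were tested on simulated data. Ratios use FPKM. Alternatives changed the scaling, filter, test, unit, pairing and libraries. The 7 added entries, and leaving each library out of the ratios, were chosen after seeing the data. A planned count of promoter motifs was not run, and no sequence or coordinate is printed.

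Members and gene lists were chosen with earlier results of these data known. Named genes were: members without overlap, the 6 with the highest FPKM, paralogue pairs and the oxygen genes; of each other list, up to 4 with the smallest p and 2 with the highest FPKM. Some genes of the other lists are not reported here.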

Additional observations from a re-analysis of the deposited data

How the results depend on the processing

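With 2 libraries per group, leaving out a library leaves 1 in its group. Counts were low enough to limit precision for CA9 (43 to 109) and ANKRD37 (14 to 66). Past the threshold were 4 genes, against 11 with upper-quartile factors, 252 with no filter, 305 with DESeq2, 1 with limma-voom, 326 with limma on log2(FPKM + 1), 518 on log2(FPKM + 0.1), and 0 to 681 without a library, the highest without WT 2. Of the members 0 passed, against 1 (SLC16A3) with no filter, with DESeq2 and on either FPKM scale, and 0 to 1 without a library, the 1 without WT 2. The replicate numbers are not stated to pair the libraries (correlation of same-numbered deviations -0.099); a replicate block gave 23 genes, no member, and 0.094 for ALDOA. Of the 34 tested entries, 14 kept their sign throughout.

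Median log2 fold changes of all genes were -0.30 and -0.40 on log2(FPKM + 1) and log2(FPKM + 0.1) and -0.11 with upper-quartile factors. Relative to 0, and not to these shifts, signs turned on the FPKM scales as follows, the first value with pseudocount 1 and the next with 0.1: SLC2A3 -0.035 and -0.035, GPI -0.29 and -0.29, PFKP -0.24 and -0.25, PFKFB4 -0.12 and -0.13, PGK1 -0.35 and -0.35, PGAM1 -0.26 and -0.26, added LDHB -0.34 and -0.34, PDHA1 -0.17 and -0.17, PDK1 -0.26 and -0.30, EPAS1 -0.12 and -0.13, EGLN1 -0.24 and -0.26, ADPGK -0.034 and -0.035, ELOB -0.10 and -0.10, RBX1 -0.24 and -0.24, TXNIP -0.36 and -0.36, PGD -0.10 and -0.10, TALDO1 -0.13 and -0.13, PYGL -0.22 and -0.23. At pseudocount 0.1 all of these values lay above the median of all genes, and at pseudocount 1 all did except PGK1, added LDHB and TXNIP. With upper-quartile factors PGK1 turned to -0.051, added LDHB to -0.037 and TXNIP to -0.054, all above that scaling's median, and with limma-voom ALDOA turned to 0.11. The cause was not tested.

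Without each library in turn, log2 fold changes ran from -0.21 to 0.93 for SLC2A3, -0.094 to 0.31 for GPI, -0.074 to 0.43 for PFKP, -1.32 to 0.23 for PFKFB3, -0.079 to 0.64 for PFKFB4, -0.69 to 0.83 for ALDOA, -0.69 to 0.26 for ALDOC, -0.78 to 0.032 for TPI1, -0.47 to 0.14 for GAPDH, -0.058 to 0.15 for PGK1, -0.0075 to 0.30 for PGAM1, -2.02 to 0.92 for ENO2, -0.46 to 0.050 for PKM, -1.58 to 0.65 for LDHA, -0.072 to 0.19 for added LDHB, -0.068 to 0.33 for EGLN1, -0.63 to 0.036 for EGLN3, -0.074 to 0.68 for ADPGK, -0.031 to 0.42 for RBX1, -0.10 to 0.16 for TXNIP, -0.45 to 0.14 for TKT and -0.24 to 1.44 for PPP1R3C. Log2 differences of ratios ran from -0.45 to 1.13 for ALDOA to ALDOC, -0.96 to 0.57 for ENO1 to ENO2, -1.59 to 0.40 for LDHA to LDHB, -0.23 to 0.93 for HIF1A to EPAS1 and -0.39 to 0.22 for the PFKM share. A lone library left in a group is assumed to vary like the other group.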
